A study of Mus musculus with 31 samples.

Results

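The glial connexins Gja1, Gjb6 and Gjb2 and the pannexin Panx1 were followed through mouse spinal cord cells of the ependymal lineage. They were taken as 4 named genes, not by any measured value. Of these, 3 had a value among the 16301 genes of the bulk RNA data, where Gjb6 had no row, and all 4 were among the 27998 genes of the single-cell RNA matrix. Within 2 kb of the 4 genes lay 10 of the 96670 peaks of the single-cell ATAC data.

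All animals were on a C57BL/6 strain background. Bulk RNA came from 12 Smart-seq2 libraries of spinal cord cells labelled as ependymal, isolated by tissue digestion and flow cytometry. They covered Foxj1-Olig2-tdT and Foxj1-tdT animals, each uninjured, 1 dpi and 5 dpi, with 2 libraries in each of the 6 groups. Both genotype names hold Foxj1, an ependymal transcription factor gene, and tdT, a fluorescent reporter, and one of them also holds Olig2, which encodes a basic helix-loop-helix factor of oligodendrocytes and their precursors. The labels do not give the constructs, the way of injury or an expansion of dpi, read here as days after injury. They do not say that replicates were separate animals, so p-values rest on the spread within library pairs alone, and that spread may be technical. Single-cell RNA data held 6 libraries of both genotypes, uninjured, 2 wpi and 4 wpi, in 1 matrix, and single-cell ATAC data held 1 sample of non-neuronal cells of uninjured cord.

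Connexins assemble into hexameric hemichannels, and hemichannels of neighbouring cells dock into gap junctions that pass ions and small metabolites. In the nervous system Gja1 (Cx43), Gjb6 (Cx30) and Gjb2 (Cx26) are the connexins of astrocytes, and Gja1 also couples ependymal cells, while oligodendrocytes use others, among them Gjb1 (Cx32) and Gjc3 (Cx29). Panx1 is related to the invertebrate innexins, does not usually form gap junctions, and opens as a membrane channel that releases ATP.

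The promoters of the 4 genes are shown because each was covered in full by an open chromatin peak. On GRCm38, Gja1 (gene ID 14609) lies at chr10:56377300-56390419 on the plus strand. Gjb2 (14619, chr14:57098602-57104702) and Gjb6 (14623, chr14:57123301-57133611) are neighbours on the minus strand with 18598 bases between them, and Panx1 (55991, chr9:15005785-15045478) is also on the minus strand. The sequences are the 250 bases before each annotated start, written 5′ to 3′ in the direction of the gene from RefSeq on GRCm38.p6. They run from chr10:56377050-56377299 for Gja1, chr14:57133612-57133861 for Gjb6, chr14:57104703-57104952 for Gjb2 and chr9:15045479-15045728 for Panx1. Capitals mark matches to the AP-1 motif TGANTCA and to the GC box GGGCGG, searched on both strands.
Gja1: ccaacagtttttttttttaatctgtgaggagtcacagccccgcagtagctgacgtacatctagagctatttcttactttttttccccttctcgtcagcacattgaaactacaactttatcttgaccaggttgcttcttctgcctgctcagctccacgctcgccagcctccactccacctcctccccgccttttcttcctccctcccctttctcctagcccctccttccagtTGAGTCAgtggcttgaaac
Gjb6: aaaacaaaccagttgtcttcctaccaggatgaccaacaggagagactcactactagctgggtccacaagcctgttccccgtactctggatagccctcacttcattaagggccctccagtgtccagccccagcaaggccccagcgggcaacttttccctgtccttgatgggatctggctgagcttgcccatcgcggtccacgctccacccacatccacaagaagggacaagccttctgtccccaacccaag
Gjb2: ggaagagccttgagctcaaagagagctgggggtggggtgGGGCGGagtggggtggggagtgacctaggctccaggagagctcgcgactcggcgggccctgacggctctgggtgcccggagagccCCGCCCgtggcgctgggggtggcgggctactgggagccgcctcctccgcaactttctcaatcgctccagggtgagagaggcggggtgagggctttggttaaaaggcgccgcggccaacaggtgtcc
Panx1: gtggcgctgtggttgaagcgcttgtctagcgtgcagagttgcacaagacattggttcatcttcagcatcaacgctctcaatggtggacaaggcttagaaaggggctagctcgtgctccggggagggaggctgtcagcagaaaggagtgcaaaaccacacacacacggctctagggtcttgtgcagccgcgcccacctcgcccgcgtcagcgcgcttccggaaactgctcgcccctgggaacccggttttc

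The Gja1 promoter held 1 AP-1 match, 19 bases before the start, and an AP-1 match was present in 6.87% of 27025 promoters of the same length. The Gjb2 promoter held 1 GC box on each strand, and 32.9% of all promoters held at least 1. Neither Gjb6 nor Panx1 had a match to these motifs, and none of the 4 matched the E-box CAGCTG (12.8% of promoters), the forkhead core GTAAACA (3.09%) or the TATA box TATAAA (13%). The GC content was 50% for Gja1, 56.8% for Gjb6, 69.2% for Gjb2 and 59.6% for Panx1, against a median of 52.0% over all promoters. Gjb2 and Panx1 held 18 and 17 CG pairs in this window, whereas Gja1 held 6 and Gjb6 held 5, close to the median of 6.

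Normalised counts summed to between 12601290 and 13878102 per bulk library, and the depth in reads is unknown. Olig2 was higher in Foxj1-Olig2-tdT than in Foxj1-tdT cells at all 3 times (log2 fold changes 8.55, 9.26 and 5.76, limma adjusted p = 0.00114, 0.00264 and 0.00517), although the second 5 dpi Foxj1-tdT library had 195 where the other 5 had at most 17.4, and the 5 dpi call was lost without the second Foxj1-Olig2-tdT library of that time (adjusted p = 0.0541). Ependymal marker genes made up 0.0547 to 1.01% of the summed values of a library and were lowest in Foxj1-Olig2-tdT cells at 5 dpi. Foxj1 itself fell in both genotypes by 5 dpi, by 1.78 on the log2 scale in Foxj1-Olig2-tdT cells (limma adjusted p = 3.04e-05) and by 1.18 in Foxj1-tdT cells (adjusted p = 0.000892). Replicate libraries correlated at r = 0.864 to 0.928 across genes in 5 groups, whereas the 2 Foxj1-tdT uninjured libraries stood apart at r = 0.989 and carry less spread than any other pair.

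Gja1, which encodes the main connexin of astrocytes and ependymal cells, was abundant in all 12 bulk libraries, with a lowest value of 8469, a median of 11025 and a highest value of 17468. Its normalised counts were 10516 and 16683 in uninjured, 9131 and 8469 in 1 dpi, and 10196 and 11169 in 5 dpi Foxj1-Olig2-tdT cells. In Foxj1-tdT cells the uninjured libraries had 16052 and 15186, the 1 dpi libraries 9674 and 17468, and the 5 dpi libraries 12553 and 10879.8. The highest and one of the lower values both came from Foxj1-tdT cells at 1 dpi, so the replicates of that group spanned nearly the range of the whole data set. The low one, with 9674, had 0.176% of its summed values in mature oligodendrocyte, 0.106% in fibroblast and 0.0442% in neuron markers, against 0.0166%, 0.00163% and 0.00190% in the other, and the part of these markers was not tested. Between genotypes the libraries overlapped without injury and at 5 dpi, while both 1 dpi libraries of Foxj1-Olig2-tdT lay below both of Foxj1-tdT. With 2 libraries a group such separation can arise without a difference, and the share of all genes that separate was not computed.

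None of the 11 contrasts called Gja1. At 1 dpi the log2 fold change of Foxj1-Olig2-tdT over Foxj1-tdT was -0.56 (95% interval -1.16 to 0.03, limma adjusted p = 0.331), where 1.84% of the 15811 genes tested were called. The genotype differences were smaller without injury (-0.24, interval -0.83 to 0.35, limma adjusted p = 0.657; 7.79% of genes called) and at 5 dpi (-0.13, interval -0.72 to 0.46, adjusted p = 0.824; 9.23% called). The estimates after injury lay below 0 in both genotypes, without a call, but 2 of these changes relative to uninjured cells turned when 1 library was left out. The 1 dpi change in Foxj1-tdT cells was 0.16 without their first 1 dpi library, and the 5 dpi change in Foxj1-Olig2-tdT cells was 0.02 without their second uninjured library. In Foxj1-Olig2-tdT cells the change against uninjured cells was -0.59 at 1 dpi (interval -1.18 to 0.00, limma adjusted p = 0.213; 8.09% called) and -0.31 at 5 dpi (interval -0.90 to 0.28, adjusted p = 0.405; 31.2% called). In Foxj1-tdT cells it was -0.26 at 1 dpi (interval -0.86 to 0.33, limma adjusted p = 0.491; 27.4% called) and -0.42 at 5 dpi (interval -1.01 to 0.17, adjusted p = 0.295; 23.0% called). A p above the threshold does not show equal levels.

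The 2 injury times and the response to injury between genotypes likewise gave no call for Gja1. At 5 dpi over 1 dpi the log2 change was 0.28 in Foxj1-Olig2-tdT cells (limma adjusted p = 0.570; 13.9% of genes called) and -0.15 in Foxj1-tdT cells (adjusted p = 0.796; 5.85% called). The difference of the injury responses, Foxj1-Olig2-tdT minus Foxj1-tdT, was -0.33 at 1 dpi (interval -1.16 to 0.51, limma adjusted p = 0.687; 2.77% called) and 0.11 at 5 dpi (interval -0.73 to 0.94, adjusted p = 0.902; 7.28% called). Gja1 was thus called in no contrast, whereas Foxj1 was called lower after injury in both genotypes. Astrocytes are among the other cells rich in Gja1. Their markers summed to 0.0970 to 0.280% of a library, with Slc7a10 listed at 0 in uninjured Foxj1-tdT cells and no astrocyte marker at 0 throughout another group. Fibroblast markers summed to 0.00124 to 0.106% of a library. In the single-cell RNA data the cluster led by Bglap and Col1a1 had 322 CPM of Gja1. The part of astrocyte and fibroblast markers in the bulk Gja1 level was not tested. In sorted bulk cells a smaller number of cells of a type and less RNA per cell cannot be told apart.

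**Figure D1:**
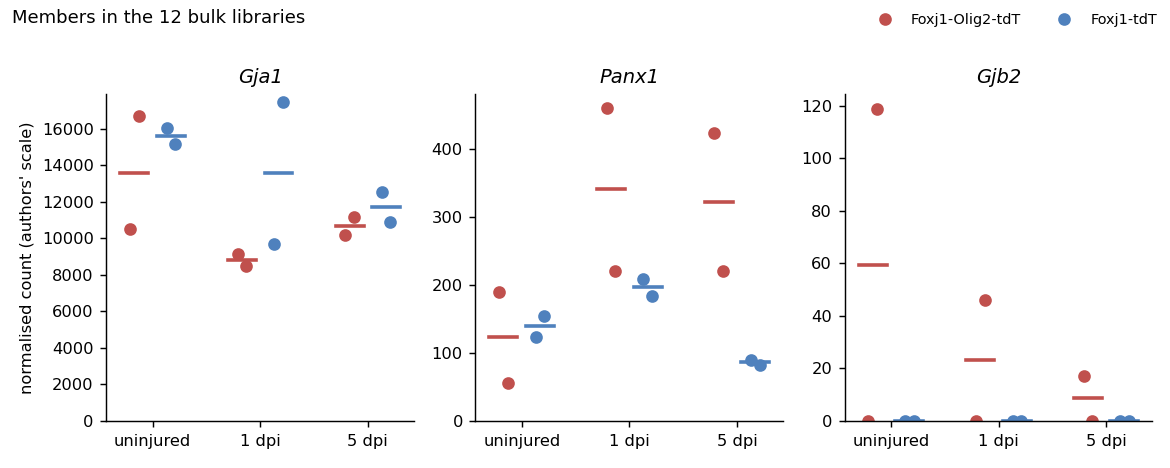
Normalised counts (y axis, the authors' scale) of Gja1, Panx1 and Gjb2 in each bulk library without injury, at 1 dpi and at 5 dpi; points are libraries, horizontal lines group means, Foxj1-Olig2-tdT left of Foxj1-tdT, 2 libraries a group. Gja1 lies between 8469 and 17468 in every library, Panx1 is highest in injured Foxj1-Olig2-tdT cells, and Gjb2 is listed at 0 in all Foxj1-tdT libraries.

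Gjb2 and Gjb6, the connexins that accompany Gja1 in astrocytes, gave little or no bulk signal. Gjb2 had normalised counts of 0 and 118.6 in uninjured, 0 and 46.1 in 1 dpi, and 17.2 and 0 in 5 dpi Foxj1-Olig2-tdT cells, and was listed at 0 in all 6 Foxj1-tdT libraries. It was thus above 0 in 1 library of each Foxj1-Olig2-tdT group and in no Foxj1-tdT library. No contrast called Gjb2. The limma adjusted p for genotype was 0.426 without injury, 0.610 at 1 dpi and 0.650 at 5 dpi, and no fold is given against a group listed at 0. In Foxj1-Olig2-tdT cells the log2 change against uninjured cells was -0.67 at 1 dpi (interval -5.89 to 4.54, limma adjusted p = 0.909) and -1.36 at 5 dpi (interval -6.57 to 3.86, adjusted p = 0.699). These intervals are too wide to place Gjb2 in either direction, and the 5 dpi estimate was -4.81 without the first uninjured and 0.73 without the second 5 dpi Foxj1-Olig2-tdT library.

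Panx1, the ATP-releasing channel, had its highest values in injured Foxj1-Olig2-tdT cells. Its normalised counts were 189.9 and 56.2 in uninjured, 462 and 222 in 1 dpi, and 424 and 221 in 5 dpi Foxj1-Olig2-tdT cells. In Foxj1-tdT cells the uninjured libraries had 123 and 155, the 1 dpi libraries 209 and 184, and the 5 dpi libraries 89.8 and 83.1. The libraries did not overlap between genotypes at 1 dpi or at 5 dpi, nor between injured and uninjured Foxj1-Olig2-tdT cells, but the 2 replicates of each Foxj1-Olig2-tdT group lay far apart. With 2 libraries a group such separation can arise without a difference. The share of all genes that separate was not computed, so it is not read as a result about Panx1.

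None of these differences passed the threshold over all genes. At 5 dpi the log2 fold change of Foxj1-Olig2-tdT over Foxj1-tdT was 1.81 (interval 0.43 to 3.19, limma adjusted p = 0.104). It was 0.70 at 1 dpi (interval -0.68 to 2.08, limma adjusted p = 0.631) and -0.41 without injury (interval -1.79 to 0.97, adjusted p = 0.763). Against uninjured cells of the same genotype, Panx1 changed by 1.62 at 1 dpi (interval 0.24 to 3.0, limma adjusted p = 0.147) and by 1.56 at 5 dpi (interval 0.17 to 2.94, adjusted p = 0.0838) in Foxj1-Olig2-tdT cells. In Foxj1-tdT cells the same changes were 0.50 (interval -0.88 to 1.89, limma adjusted p = 0.581) and -0.67 (interval -2.05 to 0.71, adjusted p = 0.483). The estimates thus point up in one genotype and down in the other at 5 dpi, and the test of that difference gave 2.23 (interval 0.27 to 4.18, limma adjusted p = 0.156).

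The side of the threshold on which Panx1 fell depended on single libraries. Where a group is left with 1 library, that library is assumed to vary like those of the other groups. Without the first uninjured Foxj1-Olig2-tdT library, the one with 189.9, the changes at 1 dpi and 5 dpi were 2.49 and 2.43 (limma adjusted p = 0.0385 and 0.0159), the difference of the 5 dpi responses was 3.1 (adjusted p = 0.0409) and the genotype difference at 5 dpi passed with the same 1.81 (adjusted p = 0.0429). Without the second, the genotype difference at 5 dpi passed too (limma adjusted p = 0.0392), while the change at 5 dpi was 0.69. Markers of other cells differed between the genotypes after injury. The 8 oligodendrocyte progenitor markers with a row, of 9, summed to 0.0386 to 0.0582% of the values in Foxj1-Olig2-tdT cells at 5 dpi, with none at 0 in both libraries, and to 0.00960 to 0.0341% in Foxj1-tdT cells at 5 dpi, with Sox10 at 0 in both. The 5 cycling markers summed to 0.0727 to 0.161% in Foxj1-Olig2-tdT cells at 5 dpi and to 0.0166 to 0.0296% in Foxj1-tdT cells at 5 dpi. At 1 dpi the progenitor markers summed to 0.0284 to 0.0286% in Foxj1-Olig2-tdT cells, with Pdgfra, Sox10, Olig1 and C1ql1 at 0 in both libraries. In Foxj1-tdT cells they summed to 0.00682 to 0.00777%, with Pdgfra and Lhfpl3 at 0 in both. The cycling markers summed to 0.00978 to 0.0118% and to 0.0159 to 0.0231% in these 1 dpi groups. The part of both marker lists in the Panx1 values was not tested.

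**Figure D2:**
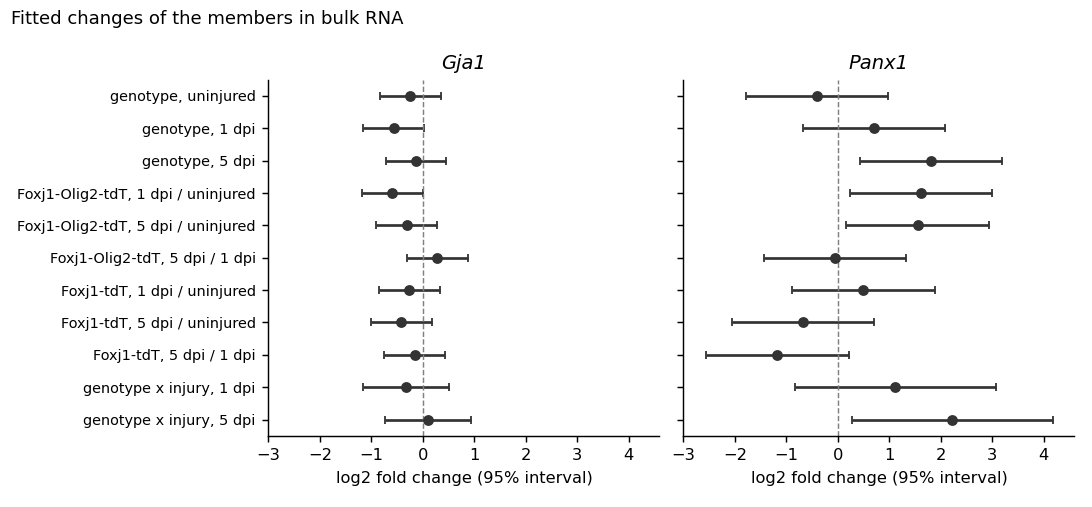
Log2 fold changes of Gja1 and Panx1 on the log2(value + 1) scale with 95% intervals from limma for the 11 contrasts of genotype, injury and their interaction. The Gja1 estimates lie between -0.59 and 0.28 with intervals that reach 0 in every contrast, and the Panx1 interval lies above 0 for genotype at 5 dpi, for both injury times against uninjured Foxj1-Olig2-tdT cells and for the 5 dpi interaction, none of them past the threshold after adjustment.

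Of the other 19 mouse connexin and pannexin genes, 10 had a row in the bulk data, and all 10 were tested. Over the 11 contrasts they gave 14 calls in 5 genes, Gjc3, Gjc1 and Gjb1 among them, every one of them upward. Of all genes tested, 1.84% to 31.2% were called in a contrast in either direction. A share of all genes over the 11 contrasts together was not computed, so this total is not read as an excess. After injury in Foxj1-Olig2-tdT cells 4 of the 10 rose at 1 dpi, where 5.93% of all genes were called higher, and 4 rose at 5 dpi, where 17.2% were. In Foxj1-tdT cells 2 rose at 1 dpi and 1 at 5 dpi (15.4% and 13.8% of all genes called higher). The median log2 change of the 10 was 2.21 and 3.37 in Foxj1-Olig2-tdT cells and 1.90 and 1.42 in Foxj1-tdT cells, where the median of all genes tested lay within 0.12 of 0. When the near-identical Foxj1-tdT uninjured libraries were counted as 1, 6 of the 14 calls remained.

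Gjc3, a connexin of myelinating glia, rose in Foxj1-Olig2-tdT cells at 5 dpi. Its normalised counts were 2.1 and 4.0 in uninjured, 6.3 and 5.6 in 1 dpi, and 509.8 and 229 in 5 dpi Foxj1-Olig2-tdT cells. In Foxj1-tdT cells they were 5.6 and 8.7, 13.7 and 3.3, and 11.2 and 30.4 at the same times. Both 5 dpi Foxj1-Olig2-tdT libraries stood above all 10 others, but the share of all genes that separate in this way was not computed. The log2 change at 5 dpi was 6.44 over uninjured cells (interval 4.33 to 8.56, limma adjusted p = 0.000656) and 5.63 over 1 dpi cells (interval 3.52 to 7.74, adjusted p = 0.00345), and both calls held without any 1 library. Against Foxj1-tdT cells at 5 dpi it was 4.13 (interval 2.02 to 6.24, limma adjusted p = 0.0242; 3.36% of genes called higher), and the difference of the 5 dpi responses was 5.15 (interval 2.17 to 8.14, adjusted p = 0.0465). The last 2 calls held without 6 and 3 of the 12 libraries in turn and were lost with the Foxj1-tdT uninjured pair counted as 1 (adjusted p = 0.0567 and 0.178), and the interaction was lost without any of 9 libraries (limma adjusted p = 0.0536 to 0.203), the second uninjured Foxj1-Olig2-tdT and both 1 dpi Foxj1-tdT libraries being the exceptions. The genotype call was lost without either library of the 5 dpi groups (limma adjusted p = 0.140 and 0.0753 for Foxj1-Olig2-tdT and 0.0965 and 0.0520 for Foxj1-tdT) and without either uninjured Foxj1-tdT library (adjusted p = 0.0563 and 0.0568). The oligodendrocyte progenitor markers that were higher in the same libraries are given with Panx1 above, and their part was not tested.

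Gjc1, a connexin of vascular smooth muscle and the embryonic heart, had normalised counts of 45.3 and 139 in uninjured, 459 and 405 in 1 dpi, and 484 and 339.7 in 5 dpi Foxj1-Olig2-tdT cells. In Foxj1-tdT cells they were 301 and 268, 203 and 420.2, and 178 and 309.8 at these times. The uninjured Foxj1-Olig2-tdT libraries were the 2 lowest of the 12, and the share of all genes with such an order was not computed. Gjc1 rose in Foxj1-Olig2-tdT cells by 2.42 on the log2 scale at 1 dpi (limma adjusted p = 0.0280) and by 2.33 at 5 dpi (adjusted p = 0.0108). The 1 dpi call was lost without either uninjured Foxj1-tdT library, the first uninjured or either 1 dpi Foxj1-Olig2-tdT library (limma adjusted p = 0.0536 to 0.109) and with the Foxj1-tdT uninjured pair counted as 1 (adjusted p = 0.0536), and the 5 dpi call without the first uninjured or the first 5 dpi Foxj1-Olig2-tdT library (adjusted p = 0.0590 and 0.0749). The 4 pericyte markers with a row, of 5, summed to 6.05e-05 to 0.000174% in uninjured Foxj1-Olig2-tdT cells, with Rgs5 and Vtn at 0. They summed to 0.00219 to 0.00310% at 1 dpi, with Rgs5 at 0, and to 0.000842 to 0.00105% at 5 dpi, with none at 0 in both libraries. In Foxj1-tdT cells they summed to 0.000936 to 0.00126% without injury, 0.000102 to 0.000684% at 1 dpi and 0.00131 to 0.00322% at 5 dpi. The 1 dpi Foxj1-tdT library with the higher Gjc1, 420.2, had the lower share, 0.000102%. Ependymal-like cells of the single-cell RNA data also held Gjc1, with 245 UMIs. The part of the pericyte markers was not tested.

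Gjb1, a connexin of oligodendrocytes, was listed at 0 in all uninjured libraries. It had 379 and 212 in Foxj1-Olig2-tdT cells at 1 dpi (limma adjusted p = 0.0352), 0 and 20.7 at 5 dpi, and 114 and 0 in Foxj1-tdT cells at 1 dpi. The call was lost without any uninjured library, either 5 dpi Foxj1-tdT or either 1 dpi Foxj1-Olig2-tdT library (limma adjusted p = 0.0529 to 0.13) and with the Foxj1-tdT uninjured pair counted as 1 (adjusted p = 0.0625). The 9 mature oligodendrocyte markers with a row, of 10, summed to 0.0452 to 0.0568% in uninjured, 0.0426 to 0.0744% in 1 dpi and 0.0336 to 0.0442% in 5 dpi Foxj1-Olig2-tdT cells. Mog, Cldn11 and Mal were at 0 in the uninjured cells of both genotypes, Mog also at 5 dpi in both, and none was at 0 in both libraries of a 1 dpi group. The Foxj1-tdT library with 114 had 0.176% and the one with 0 had 0.0166%, and the part of these markers was not tested.

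**Figure D3:**
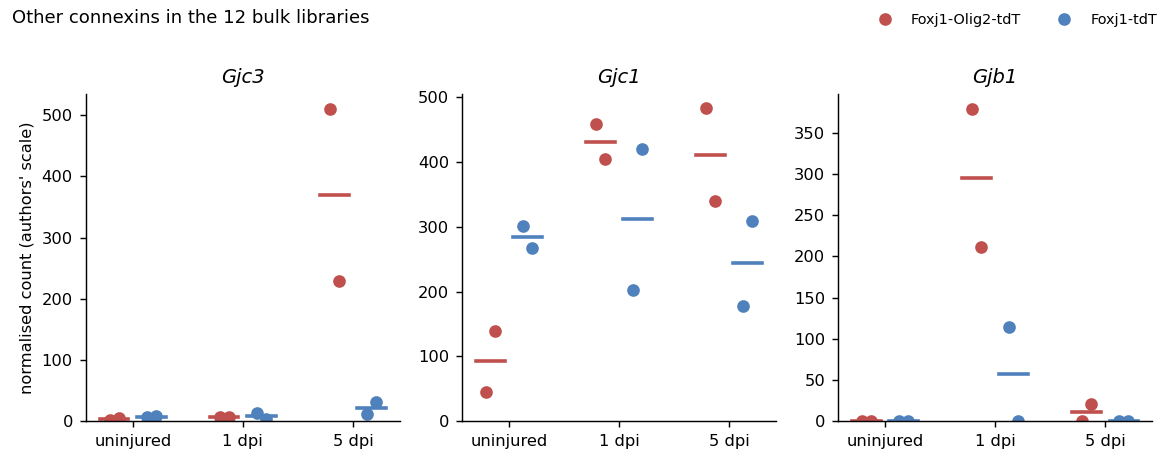
Normalised counts (y axis, the authors' scale) of Gjc3, Gjc1 and Gjb1 per bulk library without injury, at 1 dpi and at 5 dpi; points are libraries, lines group means, Foxj1-Olig2-tdT left of Foxj1-tdT. Gjc3 is at 509.8 and 229 in 5 dpi Foxj1-Olig2-tdT cells and at most 30.4 elsewhere, and Gjb1 is listed at 0 in all uninjured libraries.

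Genes that bind, modify or turn over connexins gave calls where the members gave none. All 15 of the partner list were tested, and 9 of them gave 36 calls over the 11 contrasts, 26 up and 10 down. Of all genes tested, 1.84% to 31.2% were called in a contrast in either direction, and no joint share was computed. At 5 dpi over uninjured cells 8 rose and 1 fell in Foxj1-Olig2-tdT cells, where 31.2% of all genes were called in either direction, and 5 rose and 1 fell in Foxj1-tdT cells, where 23.0% were. Ocln, a tight junction protein, was the one that fell in both. In Foxj1-Olig2-tdT cells the uninjured libraries had 2639.5 and 2522, the 1 dpi libraries 929 and 1225, and the 5 dpi libraries 324 and 218.5. Uninjured Foxj1-tdT libraries had 3827 and 3546, the 1 dpi libraries 1123 and 861, and the 5 dpi libraries 1338 and 1248. The log2 change at 5 dpi over uninjured cells was -3.27 in Foxj1-Olig2-tdT cells (limma adjusted p = 9.21e-06), against -1.51 in Foxj1-tdT cells (adjusted p = 0.00191). The difference of these responses was -1.76 (limma adjusted p = 0.0144) and was lost without either uninjured Foxj1-tdT library (adjusted p = 0.0718 and 0.0853) and with that pair counted as 1 (adjusted p = 0.0792).

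Cav1, a caveolar scaffold reported to bind Gja1, rose in both genotypes. In Foxj1-Olig2-tdT cells the uninjured libraries had 93.8 and 8.2, the 1 dpi libraries 859 and 975, and the 5 dpi libraries 17927 and 12902, a log2 change of 9.01 at 5 dpi (limma adjusted p = 4.66e-05). Uninjured Foxj1-tdT libraries had 9.4 and 6.2, the 1 dpi libraries 1457 and 659.8, and the 5 dpi libraries 3222 and 1719.7, a log2 change of 8.09 at 5 dpi (limma adjusted p = 0.000281). Fibroblasts are also rich in Cav1. The 5 fibroblast markers with a row, of 6, summed to 0.0650 to 0.0744% at 5 dpi in Foxj1-Olig2-tdT cells, to 0.0351 to 0.0502% at 5 dpi in Foxj1-tdT cells and to at most 0.00728% in uninjured cells, with none of the 5 at 0 in both 5 dpi libraries of a genotype, and their part was not tested. Dbn1, the actin-binding drebrin that holds Gja1 at the membrane, rose at 5 dpi by 4.70 in Foxj1-Olig2-tdT cells (limma adjusted p = 0.000297) and by 8.81 in Foxj1-tdT cells (adjusted p = 4.14e-05), and it was higher without injury in Foxj1-Olig2-tdT cells, with 82.9 and 68.8, against 0 and 3.3 in Foxj1-tdT cells (log2 fold change 5.21, adjusted p = 0.00130). At 5 dpi Dbn1 had 1944 and 2031 in Foxj1-Olig2-tdT and 921.6 and 942.5 in Foxj1-tdT cells. The larger change in Foxj1-tdT cells thus starts from values near 0 and does not mean a higher level after injury. Nedd4, the ubiquitin ligase that removes Gja1 from junctions, rose at 5 dpi by 1.00 in Foxj1-Olig2-tdT cells (limma adjusted p = 0.000563) and by 0.96 in Foxj1-tdT cells (adjusted p = 0.00143). The kinase Mapk3, which phosphorylates Gja1, rose at 5 dpi by 1.52 in Foxj1-Olig2-tdT cells (limma adjusted p = 0.0111, and 0.0678 without their first 5 dpi library) and by 2.68 in Foxj1-tdT cells (adjusted p = 0.000968).

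Panx1 releases ATP, and a list of 15 genes, called the ATP list, covers receptors and enzymes for extracellular nucleotides and receptors for adenosine. Not all of them act on ATP itself. Of the 15 genes, 13 were tested and 4 gave 6 calls, 1 up and 5 down. Entpd1, an ectonucleotidase, fell at 5 dpi in Foxj1-tdT cells, which had 0 and 6.5 against 82.4 and 74.9 without injury (log2 change -4.86, limma adjusted p = 0.00765). This call was lost without either uninjured library (limma adjusted p = 0.0627 and 0.0562) and with both counted as 1 (adjusted p = 0.0606). Entpd2, an ectonucleotidase that cleaves ATP itself, rose in the same cells to 388 and 271, against 0 and 0 without injury (limma adjusted p = 0.0107), a call lost without either uninjured (adjusted p = 0.0666 and 0.0670) or the first 5 dpi Foxj1-tdT library (adjusted p = 0.0569) and with the uninjured pair counted as 1 (adjusted p = 0.0678). In Foxj1-Olig2-tdT cells it stayed at or below 33.7 in all 6 libraries. Adora1, the adenosine A1 receptor, fell at 5 dpi in Foxj1-Olig2-tdT cells, which had 50.8 and 0 against 773 and 379.8 without injury (log2 change -6.24, limma adjusted p = 0.00698). Enpp2, the secreted lipid and nucleotide phosphodiesterase autotaxin, fell in Foxj1-tdT cells at 1 dpi by 2.20 and at 5 dpi by 2.71 on the log2 scale (limma adjusted p = 0.00702 and 0.00301), the first of these lost without the first uninjured (adjusted p = 0.0501) or the second 1 dpi library (adjusted p = 0.0569). Each falling gene was also lower at 5 dpi in the other genotype, without a call. In Foxj1-Olig2-tdT cells Entpd1 had 24 and 34.4 against 147.7 and 261.6 without injury, and Enpp2 820 and 443 against 1358.5 and 1311. In Foxj1-tdT cells Adora1 had 207 and 159 against 668 and 671. Neither interaction contrast called a gene of this list. At 5 dpi over uninjured cells 1 of the 13 was called in Foxj1-Olig2-tdT cells, where 31.2% of all genes were, and 3 in Foxj1-tdT cells, where 23.0% were.

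The genes whose log2 values followed each member most closely over the 12 bulk libraries were taken from 13407 genes with a mean of at least 50 in 1 group. For Gja1 they were St13 and Muc4 (Pearson r = 0.87 each), Aox4 (0.86), Gpatch2 (0.84) and Sdhaf2 (0.83), and Muc4 was above 0 in 5 libraries only. For Panx1 they were Ddx51 (0.91), Tmem234 (0.90), Mrm1 (0.88), Il33 (0.87) and Acot8 (0.85). For Gjb2, above 0 in 3 libraries, they were Slc45a3 (0.82), Eno1b, Gm4735 and Mars2 (0.81 each) and Gm6210 (0.80). These are descriptions over libraries that share group and scaling, with no test.

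The single-cell RNA matrix separated Gja1 and Panx1 by cell type. It held 3500 cells, of which the deposited cell table kept 3285 with 716 to 52590 UMIs each (median 5722), and 7 barcodes were shared between libraries. The library codes could not be tied to the labelled samples, so genotype and time are not compared in these cells. Clustering without the connexin and pannexin genes gave 14 clusters. Of these, 9 with 2621 cells were ependymal-like, 1 with 126 cells was mature oligodendrocyte-like and 1 with 59 cells was oligodendrocyte progenitor-like, while 3 stayed unnamed. All 9 ependymal-like clusters had at least 9 of the 10 ependymal markers in at least 25% of cells, but 8 had no ependymal marker among their 10 leading genes, and 1 of these, with 156 cells, was led by the astrocyte marker Gfap. The mature oligodendrocyte markers made up 6.44% of the UMIs of the cluster named for them and 0.0291% of ependymal-like cells. Nearly all oligodendrocyte-like cells came from 2 libraries, 020 (33 mature, 22 progenitor-like) and 073 (93 and 35). There is 1 matrix and no replicate for a class, so levels are given as CPM, the UMIs of a gene per 1000000 UMIs of the class, with exact Poisson intervals at the 95% level that cover counting error only. Without the cluster led by Gfap the remaining 2465 ependymal-like cells had 274 CPM of Gja1 and 4.24 CPM of Panx1, against 276 and 4.23 with it.

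Gja1 was among the more abundant transcripts of ependymal-like cells and nearly missing from oligodendrocyte-like cells. Its level was 8.43 CPM (12 UMIs, interval 4.36 to 14.7) in mature oligodendrocyte-like and 4.71 (2 UMIs, 0.571 to 17) in progenitor-like cells, against 276 (4563 UMIs, 268 to 284) in ependymal-like cells. The mature cells were thus 32.7-fold lower (18.7 to 63.4), and 7 of their 12 UMIs were in 1 cell. Among genes with at least 20 UMIs, 29.2% were at least 2-fold lower in mature oligodendrocyte-like than in ependymal-like cells and 26.4% in progenitor-like cells. A Gja1 UMI was found in 3.97% of mature oligodendrocyte-like, 3.39% of progenitor-like and 71.7% of ependymal-like cells, although the ependymal-like cells had the lowest median depth of the 3 (9678, 7771 and 5617 UMIs). In ependymal-like cells Gja1 ranked 535th of all genes.

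Within the ependymal-like class the 9 clusters had 241 to 304 CPM of Gja1, the highest being the one led by Gfap, and the ependymal-like cells of the 6 libraries had 213 to 302. The lowest of these, library 073, rests on 26 cells. Over all kept cells the libraries had 157 (073) to 296 CPM, and 073 was the library with most oligodendrocyte-like cells. Of the unnamed clusters, the one led by Bglap and Col1a1 had 322 CPM, the one led by Lyz2, Ctss and Gpnmb 303, and the one led by Hbb-bs, S100a8 and Top2a 99.5.

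Panx1 had the opposite order at a much lower count. Its level was 45.0 CPM (64 UMIs, interval 34.6 to 57.4) in mature oligodendrocyte-like and 28.3 (12 UMIs, 14.6 to 49.4) in progenitor-like cells, against 4.23 (70 UMIs, 3.30 to 5.35) in ependymal-like cells. The ratios were 10.6 (7.45 to 15.1) and 6.68 (3.29 to 12.4). At least 2-fold higher were 20.8% of genes in mature oligodendrocyte-like and 25.8% in progenitor-like cells. A Panx1 UMI was found in 22.2%, 20.3% and 2.59% of the cells of these classes, and in 6.24%, 6.32% and 0.870% after each cell was thinned to 2000 UMIs. The oligodendrocyte-like classes remained above the ependymal-like class at equal depth.

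Panx1 UMIs were counted within single libraries as well. In library 020 Panx1 was at 39.5 CPM in mature oligodendrocyte-like and 25.2 in progenitor-like cells, against 4.33 (1 UMI) in ependymal-like cells. In library 073 the values were 46.5 and 32.9, and its 26 ependymal-like cells had no Panx1 UMI, which allows up to 15.9 CPM. These comparisons rest on few ependymal-like cells, with 45 in library 020. The unnamed cluster led by Lyz2, Ctss and Gpnmb held 221 cells of library 020. The one led by Bglap and Col1a1 held 192 of library 073. Ependymal markers made up 1.37% and 1.17% of their UMIs, against 1.15% in ependymal-like cells. In these clusters Panx1 was at 9.67 (12 UMIs) and 3.81 CPM (6 UMIs). Over all kept cells Panx1 was at 14.2 in 020 and 22.0 in 073, against 3.64 to 7.34 in the other 4 libraries, which held 2 of the oligodendrocyte-like cells between them. No class was free of Panx1 UMIs, and free RNA in the droplets was not measured.

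Gjb6 and Gjb2 had very few UMIs in the single-cell RNA data. Gjb6 had 9 UMIs in 4 cells, 8 of them in the unnamed cluster led by Bglap and Col1a1 (5.08 CPM, interval 2.20 to 10.0) and 1 in ependymal-like cells. In that cluster astrocyte markers made up 0.180% of UMIs, fibroblast markers 0.0763% and ependymal markers 1.17%. In ependymal-like cells these shares were 0.0755%, 0.00513% and 1.15%. Of the 8 Gjb6 UMIs of that cluster, 6 were in 1 cell, and the part of these markers was not tested. Gjb2 had 2 UMIs in 2 ependymal-like cells of libraries 019 and 072. At 3 counts the ependymal-like class could show a level of 0.181 CPM.

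Other connexins marked the same classes. Gjc3 had 1376 UMIs in mature oligodendrocyte-like cells (967 CPM, in 92.1% of cells) and 196 in progenitor-like cells (462 CPM, 98.3%), against 6 in ependymal-like cells (0.363 CPM). Gjb1 had 281 UMIs in mature oligodendrocyte-like cells and 10 in ependymal-like cells. Gjc1 had 1 UMI in mature oligodendrocyte-like and 1 in progenitor-like cells, against 245 in ependymal-like cells (14.8 CPM). Gjb5 had no UMI in any kept cell.

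**Figure D4:**
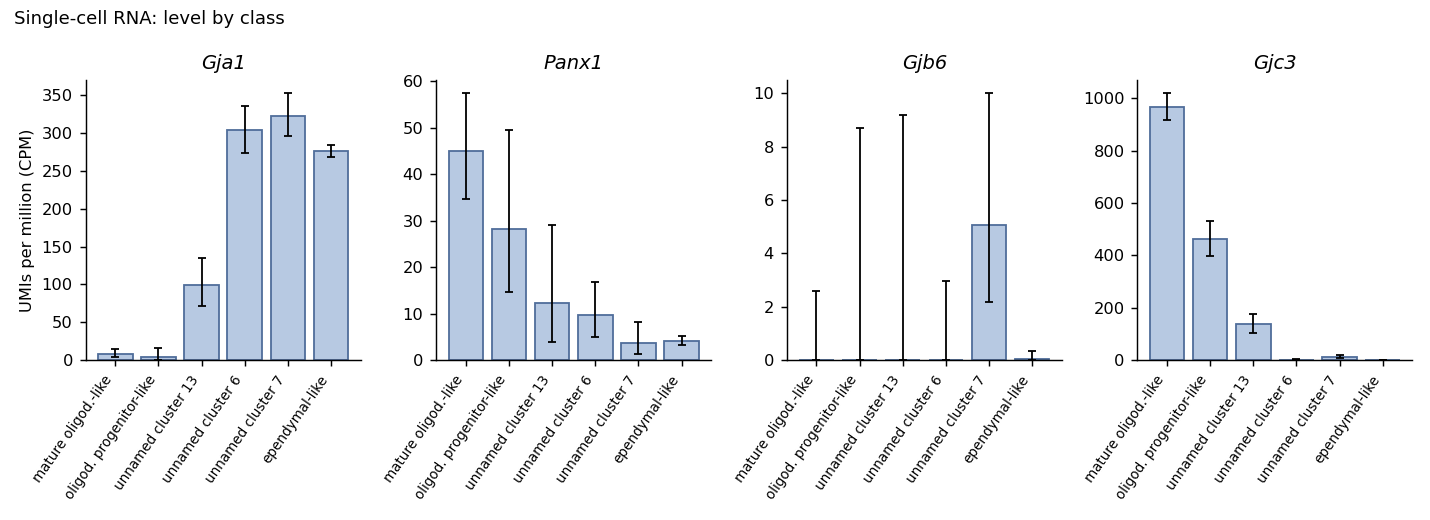
CPM (y axis) of Gja1, Panx1, Gjb6 and Gjc3 in the cell classes of the single-cell RNA data, with exact 95% Poisson intervals that cover counting error only. Gja1 is lowest in the oligodendrocyte-like classes (8.43 and 4.71, against 276 in ependymal-like cells), while Panx1 (45.0 and 28.3, against 4.23) and Gjc3 (967 and 462, against 0.363) are highest there.

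Open chromatin at the 4 genes was read from 1084 cells of 1 uninjured sample in the authors' 8 classes, which are named here as deposited. Astrocyte marker genes had most cut sites in ACNT1 and ACNT2 (2624 and 2219 CPM, at most 783 elsewhere), ependymal markers in EP1 to EP3 (946 to 1119, at most 495 elsewhere), oligodendrocyte progenitor markers in OPC and endothelial markers in VEC. PER was highest for the pericyte and fibroblast lists. Levels are cut sites in the peaks within 2 kb of a gene, in CPM as above, per 1000000 cut sites of the class. The classes came from the same cells, the 2 ends of a fragment are counted separately, and there is 1 sample, so intervals are too narrow and no test was made.

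Gja1 had 2 peaks, a broad one over its start (chr10:56376028-56382196) and a small one within the gene (chr10:56385335-56385557). Its level was 46.5 CPM in ACNT1, 76.3 in ACNT2, 13.8 in OPC, 118 in VEC and 87.0 in PER, against 76.7 in EP1, 80.6 in EP2 and 75.8 in EP3. The 3 EP classes and ACNT2 lay close together, and OPC was lowest. OPC cells had 35 cut sites, 14 of them in 1 cell, and a level 5.73-fold lower (interval 4.11 to 8.25) than EP1 to EP3 together, where 10.6% of genes with a peak were at least 2-fold lower. ACNT1 was at 0.589 of the EP level (0.442 to 0.771), ACNT2 at 0.967 (0.821 to 1.13), VEC at 1.5 (1.12 to 1.96) and PER at 1.10 (0.873 to 1.38).

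Gjb6 separated the ACNT classes from the EP classes. Its peaks lie at the start (chr14:57133132-57133933) and just inside the gene (chr14:57131891-57132587). The level was 40.6 in ACNT1, 58.1 in ACNT2, 1.57 in OPC and 12.7 in PER, against 0.728 in EP1, 0.785 in EP2 and 1.46 in EP3. VEC had no cut site, which allows up to 6.57 CPM. ACNT1 and ACNT2 together had 176 cut sites and EP1 to EP3 had 23, a ratio of 56.3 (36.3 to 91.1), and 9.77% of genes were at least 2-fold higher in ACNT. A Gjb6 cut site was found in 31.8% of ACNT cells (55 of 173) and 1.46% of EP cells (11 of 754), and in 17.6% and 0.348% of them after thinning to 5000 cut sites. The peak at the start alone gave a ratio of 28.6 (17.1 to 50.2).

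Its neighbour Gjb2 had 1 peak, over its start (chr14:57103755-57104955), and was also higher in the ACNT than in the EP classes, with a smaller difference. The level was 13.5 in ACNT1, 15.9 in ACNT2, 12.6 in OPC, 12.7 in PER and 0 in VEC, against 2.67 in EP1, 4.91 in EP2 and 4.02 in EP3. The ratio of ACNT over EP was 3.47 (2.44 to 4.89, 51 against 108 cut sites). OPC and PER lay at 2.90 (1.89 to 4.34) and 2.93 (1.47 to 5.34) times the EP level, where 17.9% of genes were at least 2-fold higher in PER, so Gjb2, unlike Gjb6, was not low in OPC. The interval of the Gjb6 ratio lies above that of Gjb2, although the difference was not tested.

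Panx1 had 5 peaks, the largest over its start (chr9:15044320-15045902), 3 within the gene and 1 beyond its end (chr9:15003455-15004238). The summed level was 16.9 in ACNT1, 14.1 in ACNT2, 56.3 in OPC, 48.2 in VEC and 26.5 in PER, against 23.8 in EP1, 24.0 in EP2 and 15.2 in EP3. OPC had 143 cut sites and 2.55 times the EP level (2.11 to 3.08), with 16.9% of genes at least 2-fold higher in OPC. At the start peak alone OPC had 34.6 CPM and EP 8.44, a ratio of 4.1 (3.16 to 5.29). VEC and PER were also above EP at the start, at 4.15 (2.33 to 6.90; 21.7% of genes at least 2-fold higher in VEC) and 2.51 (1.51 to 3.98), while ACNT was below it at 0.420 (0.214 to 0.750). For the summed level the intervals of OPC (47.4 to 66.3) and VEC (with 30.2 as its lower bound) overlapped.

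**Figure D5:**
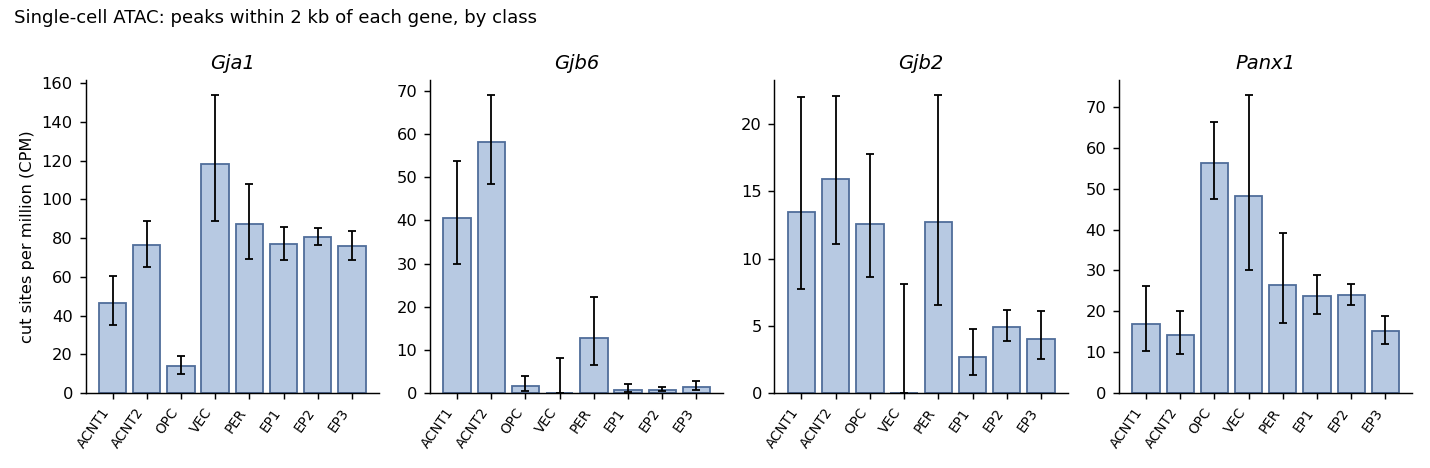
CPM of cut sites (y axis) in the peaks within 2 kb of Gja1, Gjb6, Gjb2 and Panx1 in the authors' 8 classes of the single-cell ATAC data, with 95% intervals that cover counting error only. Gjb6 stands at 40.6 and 58.1 in ACNT1 and ACNT2 and below 1.5 in the 3 EP classes, Gja1 is lowest in OPC at 13.8, and Panx1 is at 56.3 in OPC and 48.2 in VEC.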

How the data were processed

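The 12 bulk RNA libraries, 2 in each of 6 groups taken from the sample labels, were deposited by the authors as normalised counts per gene, a signal whose scaling is not given in the sources used here. The single-cell data were deposited by the authors as UMI counts per gene and cell and as cut-site counts per peak and cell. The submitters' processing notes name mm10, Bowtie2, SAMtools, deepTools, Cell Ranger and Cell Ranger ATAC without versions, and their roles are not given in the sources used here. The 12 bulk ATAC samples of the 31 were not analysed here. The members and gene lists were chosen with earlier results of these data known.

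Bulk values were tested as log2(value + 1), the scale of every fold change, with limma 3.58.1 (R 4.3.3, trended variance). All 12 libraries entered 1 fit, and the 15811 of 16301 genes with at least 10 in at least 2 libraries were adjusted by Benjamini-Hochberg at 0.05 within each of 11 contrasts. On simulated data the genotype contrast at 5 dpi recovered 14.3%, 47.0% and 62.0% of genes changed by 1, 2 and 3 on the log2 scale. These were 63, 66 and 71 of 15811 genes, changed in 1 group only, with the fitted variance taken as the true spread. The real contrast called 9.23% of genes, and recovery under this adjustment depends on the share changed, so these rates may not carry over. An exact 0 may be a failed estimate and is written as listed at 0. No value is per length, so levels of different genes are not compared. Named list genes were those called, up to 4 a list and contrast by lowest adjusted p, with the uncalled values of a named gene added after they were seen. Values of a few list genes are not given here. Replicate numbers did not pair the samples (correlations of deviations -0.0296 to 0.0222), so no block was used.

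Single-cell RNA was clustered with scanpy 1.11.5 (2000 variable genes without the 5 connexin and pannexin genes among them, 30 components, 15 neighbours, Leiden resolution 1), and clusters were named from textbook markers detected in at least 25% of cells. No doublet caller was run. The planned comparison of genotype and time was not made. Intervals are exact at the 95% level, Poisson for levels and Clopper-Pearson for shares, and a count of 0 allows up to 3 counts. Peaks were assigned within 2 kb of a gene on GRCm38. Other tools were scikit-learn 1.9.0, scipy 1.17.1, pandas 2.3.3 and numpy 2.4.6.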

Additional observations from a re-analysis of the deposited data

Results flagged for a closer look

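Cells that the authors' cell table leaves out of the single-cell RNA matrix still held UMIs of the members. In these 215 cells Gja1 had 199 UMIs (71.5 CPM, in 15.8% of cells) and Panx1 had 29 (10.4 CPM), while Gjb6 and Gjb2 had 0. The Gja1 UMIs were mostly in library 073, where 165 UMIs in 26 cells gave 317 CPM, against 33 UMIs at 15.4 CPM in the 176 left-out cells of library 020. Of the Panx1 UMIs, 27 were in library 020. Fibroblast markers made up 3.36% of the UMIs of the left-out cells, infiltrating myeloid markers 2.67%, microglia markers 1.03% and ependymal markers 0.0237%, and their part in these values was not tested.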

How the results depend on the processing

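No bulk contrast called a member with a pseudocount of 8, without the filter, with median-of-ratios or quantile scaling, with the replicate block or with the Foxj1-tdT uninjured pair as 1 library, and only quantile scaling turned signs, of Gja1 at 5 dpi over 1 dpi in Foxj1-tdT cells (0.03) and of its 5 dpi interaction (-0.0022), with the cause not tested. With the replicate block, Panx1 in Foxj1-Olig2-tdT over Foxj1-tdT cells at 5 dpi kept 1.81 (limma adjusted p = 0.0805), and calls were 12 for the connexin list, 33 for the partners and 7 for the ATP list; with the pair as 1 library they were 6, 28 and 4. The ATP list gave 12 calls with a pseudocount of 8 and 10 with quantile scaling.

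Leaving out single libraries moved log2 fold changes of Gja1 between genotypes to -0.57 to 0.10 without injury and -0.99 to -0.14 at 1 dpi. In Foxj1-tdT cells they ran over -0.69 to 0.16 (1 dpi over uninjured) and -0.58 to 0.27 (5 dpi over 1 dpi), in Foxj1-Olig2-tdT cells over -0.64 to 0.02 (5 dpi over uninjured), and for the interactions over -0.75 to 0.10 at 1 dpi and -0.23 to 0.44 at 5 dpi. Panx1 ran over -1.28 to 0.46 (genotype, uninjured), 1.35 to 2.28 (genotype, 5 dpi), 0.75 to 2.49, 0.69 to 2.43 and -0.59 to 0.46 (Foxj1-Olig2-tdT at 1 dpi, at 5 dpi, and 5 dpi over 1 dpi) and 1.36 to 3.1 (5 dpi interaction). Gjb2 ran over -4.12 to 2.11, -4.81 to 0.73 and -3.46 to 1.41 for the same changes in Foxj1-Olig2-tdT cells. List calls ran over 6 to 16 (connexins, 6 without either uninjured Foxj1-tdT library), 26 to 37 (partners) and 3 to 16 (ATP).

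Over all 3500 cells Gja1 was at 234 CPM, not 255, and with libraries weighted equally Panx1 was at 9.31, not 7.82. Thinned shares of cells were 38.8% for Gja1 and 1.27% for Panx1 in RNA, and 24.0% for Gja1, 3.38% for Gjb6, 2.58% for Gjb2 and 9.35% for Panx1 in chromatin, by construction lower at less depth. Leaving the cluster led by Gfap out of the ependymal-like class was chosen after seeing the data.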
